A study of Mus musculus with 12 samples.

Results

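Ribosomal protein pseudogenes are copies of ribosomal protein messenger RNAs that were written back into the genome, and 109 of them with names were followed here in mouse liver. They are the rows of the deposited count table whose gene name is a ribosomal protein name ending in -ps and a number, or in -ps alone, and that were chosen on having at least 20 counts summed over the 12 libraries. Of 54532 rows, 298 had such a name. Of these, 129 had no count in any library, 60 had 1 to 19 counts in all and 109 passed the rule. Each of the 109 is set beside its parent, the gene whose name stands before -ps, which gave 44 parents.

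The livers came from wild-type (WT) mice, and each library was made 9 days after 1 of 4 adenoviruses, viruses that carry a gene or a hairpin RNA into liver cells. The study's design names lipid metabolism and ANGPTL8, a secreted protein of liver and fat that is known to restrain lipoprotein lipase. Ad_GFP is the control virus for overexpression, ANG8 carries ANGPTL8, shCtrl carries a control hairpin and shANG8 carries a hairpin against ANGPTL8, with 3 libraries in each group. All 4 groups received a virus and none was untreated. The labels do not say whether the 3 libraries of a group are separate mice. In the main fit each p-value reflects only how far libraries of the same group lie apart. This spread was estimated over the 4 groups together, with other genes as a guide.

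A processed pseudogene forms when the reverse transcriptase of a mobile element copies a spliced messenger RNA and the copy lands elsewhere, without introns and usually without a promoter. Ribosomal protein genes are short, very highly expressed and known for large numbers of such copies. A young copy can be so like its parent that a sequencing read does not tell them apart, so a count on such a row can come from the copy, from the parent or from another copy.

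Total counts ranged from 12537083 to 15144312 per library. Mitochondrial genes took 19.8% to 34.9% of the counts in Ad_GFP against 22.5% to 43.8% in ANG8, and 22.9% to 24.2% in shCtrl against 19.3% to 22.9% in shANG8. Angptl8 itself was higher in ANG8 than in Ad_GFP by 1.28 on the log2 scale (standard error, SE, 0.329, adjusted p = 0.0201, edgeR) and its log2 fold change in shANG8 against shCtrl was -1.29 (SE 0.328, adjusted p = 0.235, edgeR). The call in ANG8 was lost in 4 of 21 alternatives, each without 1 library of ANG8 or Ad_GFP, with adjusted p up to 0.0786 by edgeR. Angptl8 stood at 89.1 CPM ± 8.24 (SD, n = 3) in Ad_GFP and 299 ± 117 in shCtrl, above the 217 ± 84.0 of ANG8 and the 122 ± 37.1 of shANG8. Levels below are CPM values, counts brought to a common library size with TMM scaling (a trimmed mean of log ratios), and folds and p-values come from edgeR's quasi-likelihood test over all 14686 genes that passed its filter on low counts, with a gene called at an adjusted p under 0.05. Hepatocyte markers were present in every library, with a summed level from 25966 to 88886 CPM over the 9 of 10 markers found, and 7 of the 9 were called lower in ANG8 than in Ad_GFP. Macrophage markers (5 of 6), T and NK cell markers (4 of 6) and markers of dividing cells (2 of 4) were called higher there, and no marker of these 4 lists was called in the knockdown comparison. The part of cell makeup in the results below was not tested.

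The 109 members lay on 20 chromosomes. The annotation calls 99 of them processed pseudogenes, 5 transcribed processed pseudogenes and 5 protein coding (Rps12-ps3, Rpl10-ps3, Rpl9-ps6, Rpl27-ps3 and Rpl36a-ps1). Proteins of the large subunit were the model for 64 and proteins of the small subunit for 45. Rps12 had the most members, 6, and 17 parents had 1 each. By position, 64 members lay in no other gene, 18 lay within a gene on the same strand and 30 within a gene on the opposite strand.

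Counts were concentrated in few members. The 109 rows held 229854 counts over the 12 libraries, with 45.4% in the 5 highest rows and 86.0% in the 20 highest. At least 1000 counts were held by 30 members, from 100 to below 1000 by 40 and 20 to 99 by 39. Just inside the threshold, Rps12-ps24 had 20 counts, Rpl31-ps12 and Rps7-ps2 had 21 each and Rps19-ps2 had 22. Just outside it, Rps10-ps4 had 19 counts, Rps2-ps9 and Rps4x-ps had 17 each and Rpl36-ps3 had 15. The filter on low counts kept 75 members for testing and left out 34.

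The sequences of members and parents were compared in the GENCODE vM21 transcripts of the mouse build GRCm38. Over the aligned bases the median identity of a member to its parent was 99.1%, with a range from 78.6% to 100%. No base differed in 14 members, which held 24.6% of all member counts, and 57 members had an identity of at least 99%. The whole reading frame of the parent was kept in 71 members. To describe how much of a member a read could tell from other genes, each was cut into all its windows of 100 bases. In 20 members every window was also found letter for letter in another annotated gene, in 85 some windows were, and in 4 none was. The members with no private window held 59508 counts, and those with only private windows held 845. Across the 109 members, Spearman's rho of identity with the summed count was 0.48, a description over rows that share libraries, parents and length classes. Copies that are not annotated were not searched.

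**Figure D1:**
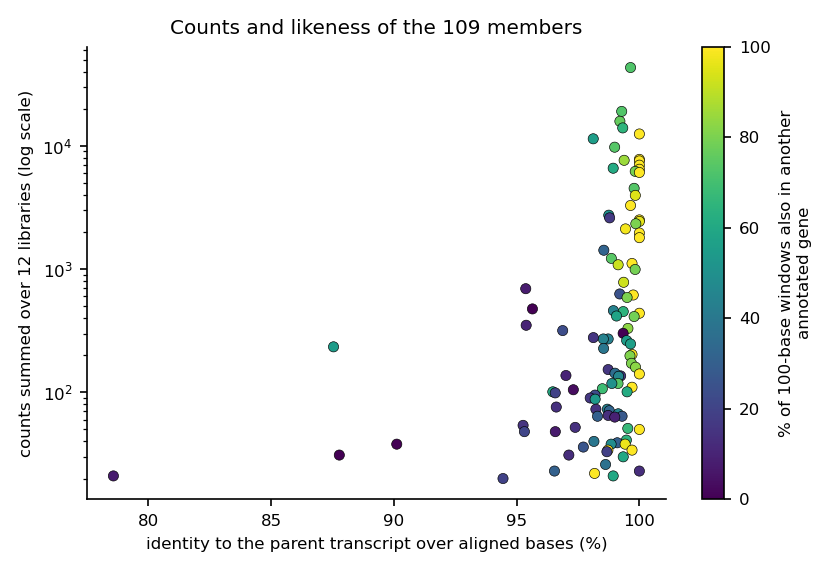
Counts summed over the 12 libraries (vertical, log scale) against identity to the parent transcript in percent (horizontal) for the 109 members, coloured by the percent of 100-base windows that another annotated gene also holds. The 6 highest members all have an identity of at least 98.1%, and the colours show windows shared with other genes for nearly every highly counted row.

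The most counted member was Rpl17-ps3, a copy of the large-subunit protein gene Rpl17, at chr12:67510756-67511311 on the plus strand of GRCm38, with 43068 counts against 31107 for Rpl17. Its level was 253, 264 and 271 CPM in Ad_GFP against 264, 235 and 202 in ANG8, and 259, 220 and 283 in shCtrl against 325, 223 and 265 in shANG8. The 4 groups overlapped. Rpl17-ps10, on chromosome 7, followed with 18982 counts, and Rps2-ps13 on the X chromosome had 15789. Per kilobase of the deposited gene length, 6 members stood above their parents, namely Rps10-ps2 (123 times the parent's level), Rps10-ps1 (32.1 times), Rpl17-ps3 (1.96 times), Rps12-ps3 (1.95 times), Rpl21-ps15 (1.90 times) and Rpl7a-ps5 (1.51 times). The deposited length of a parent can differ from that of its coding transcript. By the length of the coding transcript the ratios were 37.9 for Rps10-ps2, 9.88 for Rps10-ps1, 3.36 for Rpl17-ps3 and 1.04 for Rpl21-ps15, and Rps12-ps3 (0.443) and Rpl7a-ps5 (0.773) were below their parents.

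Rps10, a protein of the small subunit's head, was the parent with the fewest counts relative to its copies. Its own row held 372 counts over 12 libraries, while Rps10-ps2 held 9734 and Rps10-ps1 held 2601. In the annotation, 66.7% of the Rps10 coding transcript lies in exons of a readthrough gene on the same strand, RPS10-NUDT3, whose row held 0 counts. The stretches below run from base 381 to base 460 of the Rps10 coding sequence, counted from 1 at its start codon. They show how a few bases separate the parent and its copies, and the capitals mark each base at which a copy differs from Rps10, or that differs in a copy.
Rps10: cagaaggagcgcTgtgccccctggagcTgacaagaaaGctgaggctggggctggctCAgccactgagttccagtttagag
Rps10-ps1: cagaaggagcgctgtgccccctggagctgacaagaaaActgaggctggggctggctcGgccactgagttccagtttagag
Rps10-ps2: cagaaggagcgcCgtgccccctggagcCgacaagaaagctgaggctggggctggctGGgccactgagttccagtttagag
In this stretch Rps10-ps1 (chr3:95622658-95622737, plus strand) carries G418A and A438G, and Rps10-ps2 (chr16:20822181-20822260, minus strand) carries T393C, T408C, C437G and A438G. Over all aligned bases, Rps10-ps1 differs from Rps10 at 6 positions and Rps10-ps2 at 5.

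Under overexpression, 16 of the 75 tested members were called, 5 higher and 11 lower in ANG8 than in Ad_GFP. Over all tested genes 7.08% were called higher and 6.39% lower, against 6.67% and 14.7% of the members. The median log2 fold change was -0.22 over the members and 0.00 over all tested genes. Under knockdown, 6 members were called, 1 higher (Rpl14-ps1) and 5 lower (Rpl10-ps3, Rps13-ps2, Rpl35a-ps2, Rps12-ps4 and Rps10-ps1) in shANG8 than in shCtrl. This comparison called few genes, 0.0613% higher and 0.129% lower, and the members were 6 of the 28, or 21.4%. The median log2 fold change there was -0.30 over the members and 0.01 over all tested genes.

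All 6 members called under knockdown were also called under overexpression, and each in the same direction, although the viruses were meant to move ANGPTL8 in opposite directions. These comparisons share no library. The knockdown calls over all genes were alike, since 24 of the 28 were also called under overexpression, 22 of them in the same direction. The 6 were 100% of the knockdown calls among members and 37.5% of the overexpression calls among them. Of the 16 members called under overexpression, 15 had the same sign of log2 fold change under knockdown, with Rpl28-ps1 as the exception. Over all genes called under overexpression, 37.8% had the same sign under knockdown. Among all 75 tested members 52 had the same sign, and among all tested genes 45.8% did.

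**Figure D2:**
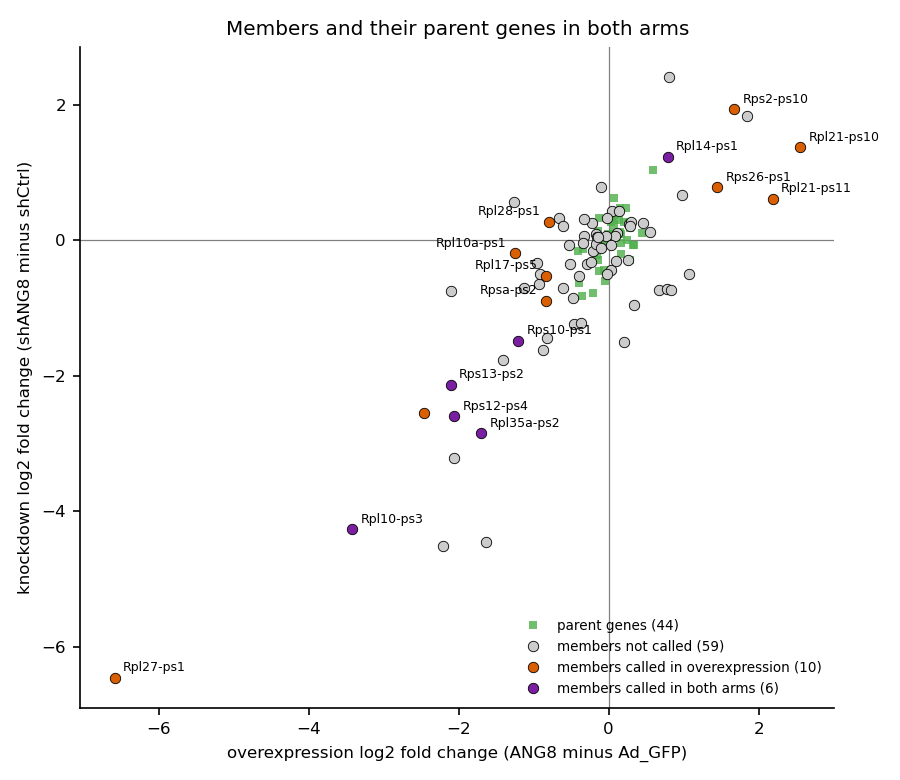
Log2 fold change under overexpression (horizontal) and under knockdown (vertical) for the 75 tested members (circles) and their 44 parent genes (squares), with members coloured by the comparison that called them. The 6 members called in both arms lie to the lower left or upper right of the origin, 5 lower and 1 higher. The lowest point on both axes is Rpl27-ps1, called under overexpression only. The parents lie from -0.41 to 0.60 on the horizontal axis and from -0.82 to 1.04 on the vertical axis. The parent Rpl21 (0.60 and 1.04) lies close to Rpl14-ps1 (0.79 and 1.24).

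Rpl10-ps3, a copy of the large-subunit protein gene Rpl10 that the annotation lists as protein coding, had the most negative change among the 6. It lies at chr9:50344201-50344968 on the minus strand, in no other gene. Its level was 22, 29.1 and 24 CPM in Ad_GFP against 2.03, 1.72 and 3.15 in ANG8, and 21.2, 30.8 and 31.5 in shCtrl against 2.73, 0.39 and 1.20 in shANG8. All 6 libraries of the ANGPTL8 viruses were below all 6 control libraries. It fell by 3.42 on the log2 scale in ANG8 (SE 0.389, adjusted p = 0.000122, edgeR) and by 4.26 in shANG8 (SE 0.415, adjusted p = 0.000191, edgeR). The parent Rpl10 had 102170 counts and log2 fold changes of -0.01 (SE 0.182) and 0.10 (SE 0.182). Rpl10-ps3 has no base that differs from Rpl10 over the 740 aligned bases, and 95.8% of its 100-base windows are found in another annotated gene. The stretch from base 301 to base 380 of the coding sequence is shown because these letters are the same in the parent, whose log2 fold changes were near 0. It lies at chr9:50344562-50344641.
Rpl10-ps3 and Rpl10: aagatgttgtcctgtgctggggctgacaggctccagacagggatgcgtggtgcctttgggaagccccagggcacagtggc

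Rps13-ps2, a copy of the small-subunit protein gene Rps13 at chr7:88530446-88530898 on the minus strand, is also identical to its parent over the aligned bases, and every 100-base window of it is found in another annotated gene. Its level was 14.9, 22.1 and 17.3 CPM in Ad_GFP against 4.27, 4.84 and 3.52 in ANG8, and 14.4, 21.8 and 21.7 in shCtrl against 7.35, 2.99 and 2.88 in shANG8. The ANGPTL8-virus libraries were all below the control libraries. It fell by 2.10 in ANG8 (SE 0.317, adjusted p = 0.00059, edgeR) and by 2.13 in shANG8 (SE 0.317, adjusted p = 0.0033, edgeR), both on the log2 scale. Rps13 had log2 fold changes of -0.03 in each arm.

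Rpl35a-ps2, at chr1:181241988-181242320 on the minus strand, copies Rpl35a, a large-subunit protein gene that is mutated in some cases of Diamond-Blackfan anaemia. Its level was 8.22, 10.5 and 8.27 CPM in Ad_GFP against 2.17, 3.69 and 2.49 in ANG8, and 8.42, 12.6 and 16.7 in shCtrl against 1.36, 1.65 and 2.18 in shANG8. The groups of each arm did not overlap. It fell by 1.70 in ANG8 (SE 0.305, adjusted p = 0.002, edgeR) and by 2.85 in shANG8 (SE 0.321, adjusted p = 0.000191, edgeR) on the log2 scale, while Rpl35a had 0.21 and 0.28. One substitution, G156A in the parent's coding sequence, separates Rpl35a-ps2 from its parent, and Rpl35a-ps3, Rpl35a-ps4 and Rpl35a-ps6 hold the same letters as Rpl35a-ps2 throughout. The substitution is the capital in the stretch from base 121 to base 200, shown because 4 members share it and cannot be told apart by sequence. The copy's stretch lies at chr1:181242121-181242200.
Rpl35a: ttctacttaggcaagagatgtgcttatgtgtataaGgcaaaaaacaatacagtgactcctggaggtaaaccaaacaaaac
Rpl35a-ps2, -ps3, -ps4 and -ps6: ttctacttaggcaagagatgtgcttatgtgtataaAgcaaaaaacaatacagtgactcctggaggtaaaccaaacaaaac
Rpl35a-ps3, Rpl35a-ps4 and Rpl35a-ps6 are named after their values were seen. Rpl35a-ps3 had 203 counts and Rpl35a-ps4 had 110, and both were below their controls in every ANGPTL8-virus library of each arm. Neither was called in an arm alone. Rpl35a-ps3 had log2 fold changes of -2.06 under overexpression (adjusted p = 0.117, edgeR) and -3.22 under knockdown (adjusted p = 0.247, edgeR), and Rpl35a-ps4 had -1.64 (adjusted p = 0.221, edgeR) and -4.46 (adjusted p = 0.16, edgeR). Both rows passed the filter on low counts only through the control groups where they were high, so these values are description and not support. The -4.46 rests on very few counts. In shANG8 Rpl35a-ps4 held 0%, 0.0464% and 0.0347% of its own and its parent's counts. Rpl35a-ps6, with 34 counts, was not tested. It had 9, 5 and 4 counts in Ad_GFP against 1, 3 and 4 in ANG8, and 1, 1 and 0 in shCtrl against 2, 3 and 1 in shANG8, so under knockdown its few counts ran the other way. As these 4 rows hold the same letters, their counts are not independent of each other.

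Rps12-ps4, at chr7:30484701-30485097 on the minus strand, overlaps 183 bases of exon of Nphs1, a kidney gene on the opposite strand with 0 counts here. Its level was 5.19, 5.70 and 4.98 CPM in Ad_GFP against 1.81, 0.82 and 1.15 in ANG8, and 5.36, 7.79 and 5.17 in shCtrl against 1.21, 1.10 and 0.70 in shANG8. Again no ANGPTL8-virus library reached the lowest control library. It fell by 2.06 in ANG8 (SE 0.36, adjusted p = 0.00164, edgeR) and fell by 2.60 in shANG8 (SE 0.371, adjusted p = 0.0021, edgeR) on the log2 scale. Its parent Rps12 had 0.15 and 0.13. Rps12-ps4 matches Rps12 but for 2 missing bases. They break the reading frame. The longest open stretch from any ATG in the copy has 73 codons, 55.3% of the parent's number, and need not begin at the parent's start codon. The stretch from base 111 to base 190 of the Rps12 coding sequence shows the shorter copy, at chr7:30484910-30484987, under its parent.
Rps12: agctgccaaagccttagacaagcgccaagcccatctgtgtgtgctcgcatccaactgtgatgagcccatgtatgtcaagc
Rps12-ps4: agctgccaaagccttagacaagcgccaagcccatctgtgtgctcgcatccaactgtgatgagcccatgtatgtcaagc
Rps12-ps3, a copy with no differing base and 12457 counts, was not called in either arm. Its log2 fold changes were 0.03 (adjusted p = 0.941, edgeR) under overexpression and -0.44 (adjusted p = 0.515, edgeR) under knockdown. Whether the copies of Rps12 differ from each other in their change was not tested.

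Rps10-ps1 was at 25.8, 18.6 and 22.6 CPM in Ad_GFP against 10.4, 8.03 and 10.7 in ANG8, and 25.3, 22.6 and 14.4 in shCtrl against 10.3, 7.0 and 5.06 in shANG8. The libraries of the ANGPTL8 viruses were all lower than those of the controls. It fell by 1.20 in ANG8 (SE 0.258, adjusted p = 0.00583, edgeR) and by 1.48 in shANG8 (SE 0.263, adjusted p = 0.0208, edgeR) on the log2 scale. The knockdown call was lost in 5 of 21 alternatives, with adjusted p up to 0.15 by edgeR without shCtrl replicate 1. Rps10-ps2, the other copy, was not called, with log2 fold changes of 0.45 (SE 0.165, adjusted p = 0.0799, edgeR) and 0.26 (SE 0.164, adjusted p = 0.737, edgeR).

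Rpl14-ps1 was the 1 member called higher in both arms. It copies Rpl14, a large-subunit protein gene, and lies at chr7:45324965-45325617 on the plus strand, opposite an intron of Trpm4. Its level was 29.2, 21.0 and 20.1 CPM in Ad_GFP against 36.7, 41.6 and 43.1 in ANG8, and 25.9, 30.3 and 27.0 in shCtrl against 71.7, 61.7 and 62.9 in shANG8. Every ANGPTL8-virus library was above every control library. It rose by 0.79 in ANG8 (SE 0.168, adjusted p = 0.00579, edgeR) and by 1.24 in shANG8 (SE 0.169, adjusted p = 0.0012, edgeR) on the log2 scale, and both calls held in all 21 alternatives. Rpl14 had log2 fold changes of -0.02 and 0.03. The copy has 4 substitutions and lacks 3 bases of a repeat, and 60.6% of its 100-base windows are found in the parent. The stretch from base 391 to base 470 of the Rpl14 coding sequence holds C420T and A423G and the missing bases, and is shown because reads over it differ between the rows. The copy's stretch lies at chr7:45325355-45325431.
Rpl14: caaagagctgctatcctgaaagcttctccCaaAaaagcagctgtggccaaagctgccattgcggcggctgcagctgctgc
Rpl14-ps1: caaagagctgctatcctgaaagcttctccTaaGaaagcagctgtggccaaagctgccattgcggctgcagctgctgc
As a percent of its own and its parent's counts, Rpl14-ps1 was 5.10% ± 1.08 (SD, n = 3) in Ad_GFP against 8.63% ± 1.14 in ANG8, and 5.44% ± 0.700 in shCtrl against 11.8% ± 1.06 in shANG8. Rpl10-ps3 was 4.50% ± 1.21 of member plus parent in Ad_GFP against 0.417% ± 0.0846 in ANG8, and 4.15% ± 0.725 in shCtrl against 0.196% ± 0.135 in shANG8. An exact two-sided permutation test of 3 against 3 cannot give a p below 0.1, so no such percent could pass the threshold in this design.

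**Figure D3:**
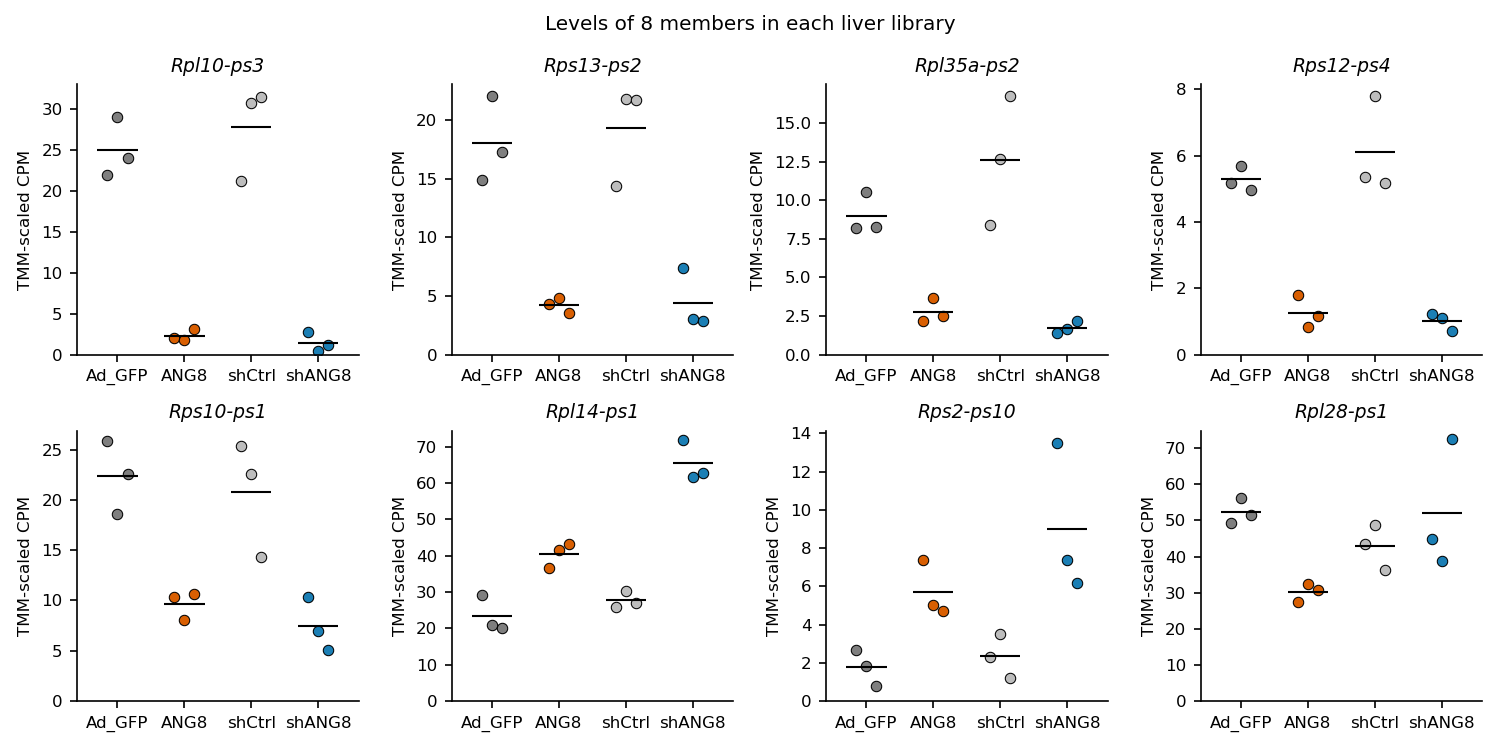
TMM-scaled CPM (vertical, linear, from 0) in each of the 12 libraries (points) with the group mean (line) for 8 members. The first 5 panels, Rpl10-ps3 to Rps10-ps1, have both ANGPTL8-virus groups below both control groups, Rpl14-ps1 and Rps2-ps10 have them above, and Rpl28-ps1 is low in ANG8 alone.

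Of the 20 members with every window shared, 16 were tested, 5 were called under overexpression and 2 under knockdown. Of the 85 with some windows shared, 57 were tested, with 10 and 4 called, and of the 4 with none, 2 were tested, with 1 and 0 called. Over all tested members 21.3% and 8% were called, and over all tested genes 13.5% and 0.191%. Whether the classes differ was not tested.

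Other overexpression calls are given next. Rpl28-ps1, identical to Rpl28, was at 49.4, 56.1 and 51.5 CPM in Ad_GFP and 27.5, 32.3 and 30.8 in ANG8, and at 43.5, 48.7 and 36.3 in shCtrl and 44.7, 38.7 and 72.5 in shANG8. It was low in ANG8 only. It fell by 0.79 in ANG8 (SE 0.204, adjusted p = 0.0165, edgeR), and its log2 fold change in shANG8 was 0.28 (SE 0.202, adjusted p = 0.791, edgeR). Rpl10a-ps1 fell by 1.25 (SE 0.237, adjusted p = 0.00261, edgeR) in ANG8. Rpl17-ps5 fell by 0.84 (adjusted p = 0.0138, edgeR) and Rpsa-ps2, a copy of the laminin receptor and small-subunit protein gene Rpsa, by 0.84 (adjusted p = 0.0148, edgeR). Their log2 fold changes under knockdown were -0.19, -0.52 and -0.89, and none was called there. The parents Rpl10a, Rpl17 and Rpsa had 0.15, -0.35 and 0.05 under overexpression and 0.48, -0.82 and 0.36 under knockdown. As a percent of its own and its parent's counts, Rpl17-ps5 was 9.91% ± 0.722 (SD, n = 3) in Ad_GFP against 8.23% ± 4.03 in ANG8. Rpsa-ps2 was 1.82% ± 0.0668 against 0.992% ± 0.0623, and Rpl10a-ps1 6.36% ± 0.971 against 2.58% ± 0.611. Single left-out libraries of ANG8 or Ad_GFP ended the overexpression call of Rpl28-ps1 and Rpl17-ps5 in 2 of 21 alternatives each and of Rpsa-ps2 in 1.

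Rpl27-ps1, with 71 counts in all, had 0 counts in all 6 libraries of the ANGPTL8 viruses. It had 22, 6 and 10 counts in the Ad_GFP libraries and 12, 14 and 7 in the shCtrl libraries. The row thus passed the count rule and the filter only through the control groups where it was high. Its folds and p-values are given as description and not as support. Against a floor of 3 counts over the group, it was at least 12.2-fold lower in ANG8 (adjusted p = 0.0102, edgeR) and at least 10.4-fold lower in shANG8 (adjusted p = 0.166, edgeR).

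Members called higher under overexpression were, beside Rpl14-ps1, Rps2-ps10, Rpl21-ps10, Rpl21-ps11 and Rps26-ps1. Rps2-ps10, annotated as a transcribed copy of Rps2, was at 2.66, 1.85 and 0.81 CPM in Ad_GFP against 7.39, 5.0 and 4.73 in ANG8, and 2.31, 3.48 and 1.22 in shCtrl against 13.5, 7.39 and 6.19 in shANG8. All ANGPTL8-virus libraries were higher than all controls. It rose by 1.68 in ANG8 (SE 0.446, adjusted p = 0.0196, edgeR), and its log2 fold change in shANG8 was 1.94 (SE 0.436, adjusted p = 0.127, edgeR). Rpl21-ps10 rose by 2.55 (SE 0.676, adjusted p = 0.019, edgeR), Rpl21-ps11 by 2.19 (SE 0.543, adjusted p = 0.0138, edgeR) and Rps26-ps1, which the naming rule left out and which is given because it was called, by 1.45 (SE 0.421, adjusted p = 0.0305, edgeR). Rps2-ps10 and Rpl21-ps10 each lost this call in 3 of 21 alternatives and Rpl21-ps11 in 1, all of them without 1 library of ANG8 or Ad_GFP, with adjusted p up to 0.0877 by edgeR. Means of the last 3 members in Ad_GFP were near 1 CPM or below. Of the parents of these 4, Rpl21 had a log2 fold change of 0.60 in ANG8, Rps2 of -0.13 and Rps26 of 0.03.

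Members whose groups did not overlap were also counted. Under overexpression 8 members were higher and 19 lower in all 3 ANG8 libraries than in all 3 Ad_GFP libraries, or 10.7% and 25.3% of those tested, against 17.9% and 16.2% of all tested genes. Under knockdown 8 were higher and 22 lower, or 10.7% and 29.3%, against 6.16% and 6.78%. Over both arms, 2 members (Rpl14-ps1 and Rps2-ps10) were higher in all 6 ANGPTL8-virus libraries than in all 6 controls and 12 were lower, or 2.67% and 16% of the tested members. Over all tested genes 0.347% were higher and 0.531% lower in this way. Among the 12 are Rpl27-ps1, Rps12-ps10, Rpl35a-ps3 and Rpl35a-ps4, which passed the filter on low counts only through the control groups. Rpl35a-ps2, with the same letters as Rpl35a-ps3 and Rpl35a-ps4, is also among them. The 12 are thus not independent of each other, and their share is description and not support.

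The mean of both effects, a contrast added after the shared direction was seen, called 20 members, 5 higher and 15 lower. Of all tested genes it called 1.53% higher and 1.56% lower, against 6.67% and 20% of the members. It is computed from the same libraries as the arms and is not separate evidence. It added Rpl38-ps2, Rpl34-ps1, Rps18-ps3, Rpl35a-ps3, Rpl35a-ps4 and Rps12-ps10 to members called under overexpression, and these are named because the count is small. Among them Rpl34-ps1 had a log2 mean effect of 1.61 and Rps12-ps10 of -3.36. As a percent of its own and its parent's counts, Rpl34-ps1 was 10.5%, 3.48% and 4.91% in ANG8 against 3.30%, 3.61% and 3.49% in Ad_GFP. In shANG8 it was 17.6%, 5.12% and 14.4% against 2.26%, 1.36% and 2.29% in shCtrl. Rps12-ps10, Rpl35a-ps3 and Rpl35a-ps4 passed the filter on low counts only through the control groups where they were high. Their effects are description and not support.

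The difference between the arms called 1 member, Rpl28-ps1 (log2 difference -1.07, SE 0.287, adjusted p = 0.0336, edgeR), where 6.62% of all tested genes were called. The control viruses, shCtrl against Ad_GFP, were compared as the background. By edgeR 0% of the tested genes were called there, and no member, while 1286 of all tested genes and 6 members had an unadjusted p under 0.05. DESeq2 called 38 genes and limma voom 0 in that comparison, and neither called a member. The members with an unadjusted p under 0.05 were Rps12-ps3, Rpl7a-ps5, Rps10-ps2, Rps6-ps4, Rps26-ps1 and Rps27a-ps2, none of which is among the 6 called in both arms.

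The parents did not pass the test where their copies did, but a parent that was not called is not thereby shown to differ from its copy. None of the 44 was called by edgeR under overexpression or knockdown, where 13.5% and 0.191% of all tested genes were called. At an unadjusted p under 0.05 by edgeR there were 4 and 10 parents, against 4069 and 1164 of the 14686 tested genes. By DESeq2 0 and 3 parents were called, and by limma voom 0 and 0. The parents' log2 fold changes ranged from -0.41 to 0.60 under overexpression and from -0.82 to 1.04 under knockdown, against -6.58 to 2.55 and -6.46 to 2.41 for the tested members. Both lower ends belong to Rpl27-ps1, which had 0 counts in both ANGPTL8-virus groups. Its fold is known only as a bound, at least 12.2-fold lower in ANG8 and 10.4-fold lower in shANG8. Counts of each parent were also summed with all rows of its name, so that a read moved between a parent and its named copies would leave the sum as it was. Of these 44 sums edgeR called 0 in either arm, with 4 and 8 at an unadjusted p under 0.05. For the Rpl10, Rps13, Rpl35a, Rps12, Rps10 and Rpl14 families the summed log2 fold changes were -0.07, -0.18, 0.12, 0.08, 0.05 and 0.03 under overexpression. Under knockdown they were 0.04, -0.16, 0.16, -0.09, -0.03 and 0.13. Pooled over the 12 libraries, Rpl10-ps3, Rps13-ps2, Rpl35a-ps2, Rps12-ps4 and Rpl14-ps1 held 2.33%, 7.97%, 3.70%, 2.19% and 7.77% of their own and their parents' counts. For Rps13-ps2 the share in the controls was higher, 13.0% in Ad_GFP and 11.7% in shCtrl. Rps10-ps1 is not among these, as it held 2601 counts against 372 for Rps10 and 9734 for Rps10-ps2. A change in a copy with a small share would also move its sum little, so such a sum cannot separate it from moved reads. The mean of both effects called 2 parents, Rpl21 (0.82, adjusted p = 0.0195, edgeR) and Rpl30 (-0.51, adjusted p = 0.0339, edgeR), and the sums of the same 2 families.

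**Figure D4:**
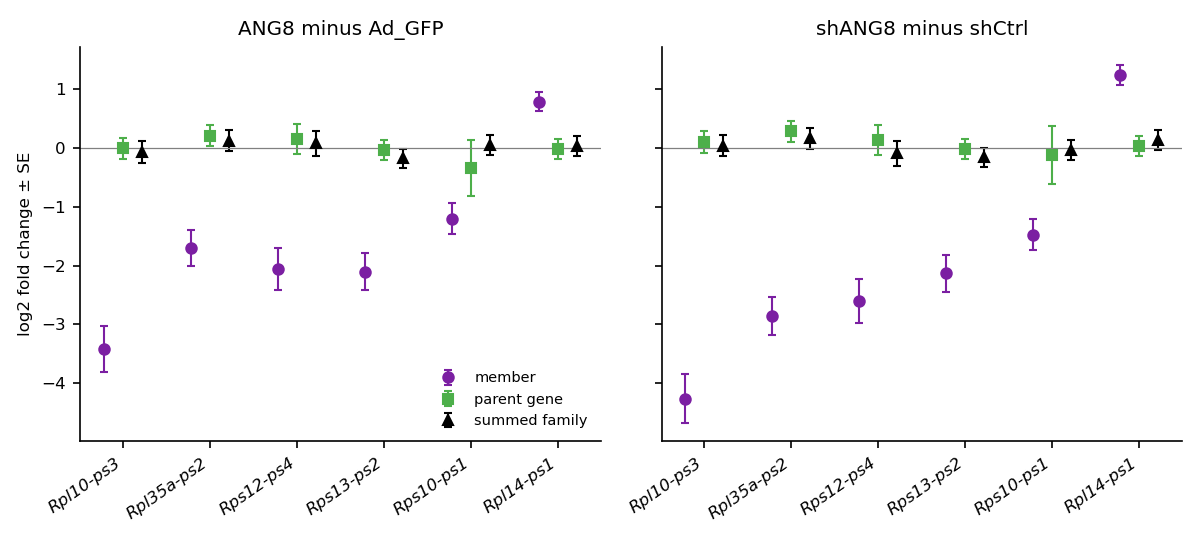
Log2 fold change ± SE under overexpression (left) and knockdown (right) for the 6 members called in both arms (circles), their parents (squares) and the summed counts of each family (triangles). The members lie from -4.26 to 1.24, and parents and sums from -0.35 to 0.28.

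Of the 80 cytosolic ribosomal protein genes, listed with earlier results known, 2 were called higher (Rps28 and Rpl41) and 1 lower (Rpl24) under overexpression, and 1 lower (Rpl24) under knockdown. These were 3.75% and 1.25% of the list, against 13.5% and 0.191% of all tested genes. The median log2 fold change of the list was 0.08 and 0.02, against 0.00 and 0.01 over all tested genes. Rpl24, a large-subunit protein gene that is the parent of no member, fell by 2.28 (adjusted p = 0.000435, edgeR) and by 2.91 (adjusted p = 0.000491, edgeR) on the log2 scale. Its row held 912 counts, at 8.41, 12.4 and 8.07 CPM in Ad_GFP against 2.25, 1.39 and 2.24 in ANG8, and 7.13, 8.82 and 9.65 in shCtrl against 1.74, 0.94 and 0.70 in shANG8. The row thus held few counts for a ribosomal protein gene, and its groups did not overlap, as for the called members.

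Pseudogenes that are no members were also among the knockdown calls. Of the 28 genes called there, 17 (60.7%) have a pseudogene biotype, 12 of them no members, against 4.32% of the tested genes. Of the 563 tested pseudogenes that are no members 2.13% were called, against 8% of the members. Under overexpression these shares were 9.95% and 21.3%. The members' shares are over all 75 tested, of which 71 have a pseudogene biotype. Rpl10-ps3, called in both arms, is annotated as protein coding, so the sets compared are unlike. No test of these shares was made.

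Together the members took 9.23% ± 0.257 (SD, n = 3) of the counts of members and parents in Ad_GFP against 8.17% ± 0.0972 in ANG8, and 8.80% ± 0.321 in shCtrl against 8.28% ± 0.556 in shANG8. The ANG8 libraries lay below the Ad_GFP libraries, with 8.08% to 8.27% against 8.99% to 9.50%. The shANG8 libraries, 7.65% to 8.71%, overlapped the shCtrl libraries, 8.56% to 9.16%.

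**Figure D5:**
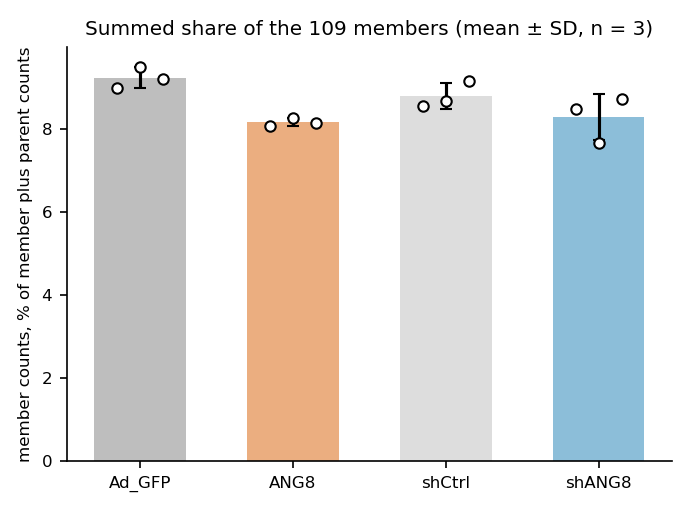
Counts of the 109 members as a percent of member plus parent counts (vertical, from 0) per library (points), with the group mean (bar) and SD (error bar, n = 3). The means lie between 8.17% and 9.23%.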

How the data were processed

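Liver RNA of mice was sequenced in 12 libraries, and the deposited table holds raw counts, whole reads per gene and library, made by the authors with featureCounts 1.5.0-p3 after CASAVA 1.8.2, per the submitters' processing notes. Not given in the sources used here are the annotation release, the aligner, the strand setting and the treatment of reads that match several places. They decide which row a read from a copied gene is counted on. The notes name mm9, but 98.3% of the 54532 genes have the coordinates of GENCODE vM21 (GRCm38), so positions are GRCm38.

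Members, lists and comparisons were chosen with earlier results of these data known. Named are members called in any comparison (at most 15 in each by p), the 20 with the highest level, those with more counts than their parent, 4 rows on each side of the threshold, their parents, genes that hold them and Angptl8. Counts were fitted over all 12 libraries with edgeR 4.0.16 (filterByExpr, TMM, robust quasi-likelihood), with p-values adjusted by Benjamini-Hochberg over the 14686 genes tested, and the fit was tested on simulated data. Each SE is the absolute log2 fold change over the square root of F. DESeq2 1.42.0, limma 3.58.1 voom, other filters and scalings, a replicate block and leaving out each library were the alternatives. Transcripts were aligned with Biopython 1.88. Some members are counted in the totals and not reported here by name.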

Additional observations from a re-analysis of the deposited data

Results flagged for a closer look

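Rpl28-ps1 is singled out because its overexpression and knockdown effects differed by the test of the difference itself. The log2 difference was -1.07 (SE 0.287, adjusted p = 0.0336, edgeR), from log2 fold changes of -0.79 in ANG8 against Ad_GFP and 0.28 in shANG8 against shCtrl. All 3 ANG8 libraries were below all 3 Ad_GFP libraries, and the shANG8 library at 72.5 CPM was the highest of its group. The call was kept in 10 of 20 alternatives and lost in 10, with adjusted p from 0.00498 to 0.0936 by the tool of each alternative. Rpl28-ps1 has the letters of Rpl28 over all aligned bases, so its counts cannot be told from those of the parent by sequence.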

How the results depend on the processing

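The overexpression count of members, 16, was 11 to 18 without single libraries and 15 to 18 in the other alternatives, and the same 16 members were called in each alternative that kept all 12 libraries and every group. The knockdown count, 6, was 15 by DESeq2, 14 with no filter on low counts and 10 with the replicate block, with all 6 among them each time, and 5 to 7 without single libraries. It was 6, the same 6, with other size factors, with library totals, without mitochondrial genes and by limma voom, and 5 on the libraries of the groups compared alone. The difference called 2 members by DESeq2 and with the replicate block, 0 with library totals, and 0 to 1 without single libraries. The mean of both effects called 11 members without ANG8 replicate 1, and up to 20 without another library.

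Over all genes, DESeq2 called 102 under knockdown (main 28), 1541 for the difference (main 972), 38 between control viruses (main 0) and 873 for the mean of both effects (main 453). No filter on low counts gave 132, 1510, 96 and 984, and the replicate block 55, 1550, 5 and 832. Without single libraries the overexpression count was 995 (without ANG8 replicate 1) to 2164, the knockdown count 21 to 39, the difference 473 to 1227, the control viruses 0 to 10 and the mean of both effects 171 to 603. Parents called were 1 under overexpression with no filter, 3 under knockdown by DESeq2 and with no filter, and 0 to 1 in either arm and in the difference without single libraries. The mean of both effects called 4 parents by DESeq2, with no filter and with the replicate block, 1 with library totals and 0 to 4 without single libraries. The causes were not tested.

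Same-numbered libraries were not paired by the labels, and their deviations correlated from -0.07 to 0.19, so the block rests on a shared number only. Per kilobase of the deposited gene length the members' summed share was 23.2%, 21.2%, 22.6% and 21.6% in Ad_GFP, ANG8, shCtrl and shANG8 in turn. With at least 100 counts it was 10.8%, 9.58%, 10.3% and 9.71%, and without protein-coding members 8.58%, 7.66%, 8.01% and 7.78%. Without single libraries these shares were 9.10% to 9.36%, 8.12% to 8.21%, 8.62% to 8.92% and 8.07% to 8.60%. The difference was not fitted on the libraries of single arms, which do not hold all its groups. The 34 members that the main filter left out were tested only in the alternatives with a looser filter.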
